A study of Glycine max with 5 samples.

Results

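Flavonoid and isoflavonoid enzymes of soybean were followed across mature pollen and seedling organs. Their probe sets were found through the gene symbols of the array annotation, as those with 1 symbol that opens with the name of an enzyme between phenylalanine ammonia-lyase (PAL) and the anthocyanidin glucosyltransferase family UGT78. The rule found 65 probe sets for 31 gene symbols among 37593 soybean probe sets. A further 5 probe sets carried several such symbols and were left out. Flavone synthase and leucoanthocyanidin dioxygenase, which the rule also names, had no probe set under these names.

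RNA of mature pollen was hybridised to 3 Affymetrix soybean arrays and RNA of sporophytic tissues to 2, each array a separate biological replicate. All plants were of the cultivar Bragg in the methods, with no transgene or treatment compared. Pollen came from glasshouse plants kept at 30 degrees C under 16 h of light and brought to flower by a photoperiod of 12 h, and it was rubbed out of isolated anthers onto coverslips and freed of anther tissue. Sporophytic tissues came from 10-day-old seedlings. The methods name primary stems, primary roots and mature leaves, while the results text of the study gives equal parts of leaf and stem RNA. The groups thus differ in age as well as in tissue, and perhaps in growth conditions, which the methods give only for the pollen plants. These cannot be told apart. In whole tissue, fewer cells of a type and less RNA per cell cannot be told apart either.

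Flavonoids are built from phenylalanine. PAL, cinnamate 4-hydroxylase (C4H) and 4-coumarate:CoA ligase (4CL) supply the activated phenolic acid, chalcone synthase (CHS) and chalcone isomerase (CHI) make the flavonoid skeleton, and later enzymes lead to flavonols, to anthocyanins and tannins, or, in legumes, to isoflavones. Soybean seedlings store isoflavones in their roots and leaves and turn them into defence compounds, while pollen of many plants is known for flavonols, which maize and petunia pollen need for germination.

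The log2 signal is the value that the authors deposited after Robust Multiarray Averaging (RMA). A linear signal of 100, which the methods required of pollen-specific genes, equals 6.64 on this scale, and a probe set is called expressed in a group when every array of the group reached it. Differences are pollen minus sporophytic tissues. They were tested with limma, the p-values were adjusted by Benjamini and Hochberg's method across the 37593 probe sets, and a probe set is called higher or lower at an adjusted p under 0.05. SE is the standard error of the difference from the same fit. The median log2 signal was between 4.11 and 4.24 on the pollen arrays and between 5.25 and 5.43 on the sporophytic arrays, and a signal of 100 was reached by 18.4 to 19.9% of probe sets in pollen and by 33.7 to 35.9% in sporophytic tissues. Of 11 probe sets of the leaf markers CAB3 and RCA (light harvesting and Rubisco activation), 9 were lower in pollen. Their summed linear signal was 988 to 1203 on the pollen arrays, 122700 on sporophytic replicate 1 and 34360 on replicate 2. Rubisco small subunit genes had no probe set under the symbols searched.

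Over the 65 members together, lower signals in pollen were more frequent than higher ones in the deposited values, though not for every enzyme. Of the 65 members, 29 (44.6%) were lower in pollen, 6 (9.23%) were higher and 30 were not called. Over all probe sets 34.5% were lower and 18.9% were higher, 53.4% in all. The median log2 difference of the members was -0.97, beside -0.22 over all probe sets. In 36 members every pollen array lay below both sporophytic arrays and in 15 every pollen array lay above them, where all probe sets gave 41.7% and 36.4%. A signal of 100 was reached by 7 members (10.8%) in pollen, beside 17.4% of all probe sets. In sporophytic tissues 19 (29.2%) reached it, close to the 29.8% of all probe sets. On no array was it reached by 37 members, and by 54.8% of all probe sets. Of the 7, 6 were expressed in sporophytic tissues as well, and no member was expressed in pollen while staying below 100 on both sporophytic arrays.

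The split of calls depended on how the arrays were scaled to each other. After quantile normalization of the soybean probe sets, 15 members were higher and 24 lower, where 37% of all probe sets were higher and 26.4% lower. With equal medians on every array 24 members were higher and 23 lower, where 53.3% of all probe sets were higher and 26.2% lower. The median difference of the members was then -0.41 and 0.18, against 0.12 and 0.93 over all probe sets. The count of higher members was 3 without pollen replicate 2, where 13% of all probe sets were higher. All 6 higher members kept that call under both scalings. Of the 29 lower members, 24 kept theirs after quantile normalization and 23 with equal medians.

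**Figure D1:**
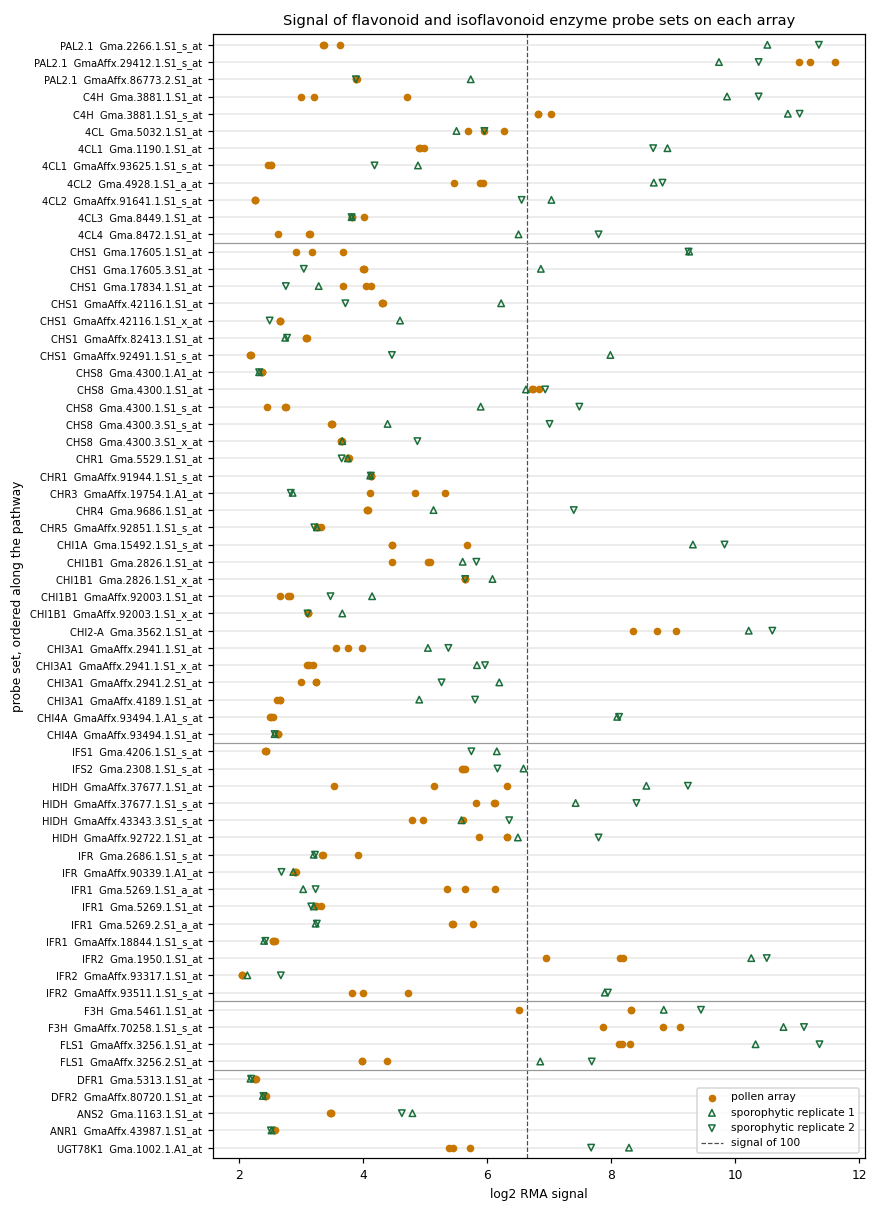
Log2 RMA signal (x axis) of the 65 probe sets, ordered along the pathway with grey lines between its 5 steps. Filled circles are the 3 pollen arrays, triangles the 2 sporophytic arrays, and the dashed line marks a signal of 100, which 7 probe sets reached on every pollen array and 19 on both sporophytic arrays.

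The entry into the pathway was lower in pollen for 8 of its 12 probe sets (66.7%), higher for 1 (8.33%) and not called for 3. Over all probe sets 34.5% were lower and 18.9% higher. The median log2 difference of the 12 was -3.42. The median was -2.18 with quantile normalized probe sets and -2.27 with equal medians. PAL, which removes ammonia from phenylalanine, was represented by the gene PAL2.1, and its probe sets went opposite ways. Gma.2266.1.S1_s_at had log2 signals of 3.36, 3.63 and 3.37 in pollen and of 10.52 and 11.35 in sporophytic tissues. Here PAL2.1 was far below a signal of 100 in pollen and bright in the seedling organs. It fell by 7.48 on the log2 scale (SE 0.29, limma adjusted p = 0.000245), a size that rests on very dim pollen signals. GmaAffx.29412.1.S1_s_at, in contrast, had 11.61, 11.03 and 11.20 in pollen and 9.74 and 10.38 in sporophytic tissues. It was bright in both groups and rose in pollen by 1.22 (SE 0.29, limma adjusted p = 0.0313). That call was lost without pollen replicate 1 (adjusted p = 0.0753), 2 (0.0668) or 3 (0.0945) and without sporophytic replicate 1 (0.0979). On the remaining PAL2.1 probe set, GmaAffx.86773.2.S1_at, only sporophytic replicate 1 stood out, at 5.74 against 3.89 to 3.90 on the other arrays. The IDs of the first 2 probe sets end in s_at, which marks probes shared by several transcripts, so either may read other PAL genes. Every probe set named below whose ID ends in s_at may likewise read other transcripts.

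C4H, the cytochrome P450 that hydroxylates cinnamic acid, was lower in pollen on both probe sets. Gma.3881.1.S1_at had 3.01, 4.72 and 3.22 in pollen and 9.87 and 10.38 in sporophytic tissues, and it fell by 6.47 (SE 0.64, limma adjusted p = 0.00249). Gma.3881.1.S1_s_at had 6.82, 7.03 and 6.83 in pollen, just above a signal of 100, and 10.85 and 11.04 in sporophytic tissues. It fell by 4.05 (SE 0.11). The 2 probe sets share the direction and differ in how much signal is left in pollen. The brighter one in pollen ends in s_at, so its signal there may come from other transcripts.

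4CL, which activates coumaric acid with coenzyme A, was lower for 5 of its 7 probe sets and higher for none. The shares over all probe sets were 34.5% and 18.9%. The 5 belong to 4CL1, 4CL2 and 4CL4. For 4CL2, GmaAffx.91641.1.S1_s_at had 2.27 on each pollen array and 7.04 and 6.56 in sporophytic tissues, and it fell by 4.53 (SE 0.16). Its other probe set fell by 2.99. For 4CL4, the pollen arrays had 2.64, 3.15 and 3.13 and the sporophytic arrays 6.51 and 7.80, and it fell by 4.18 (SE 0.47). 4CL1 fell by 3.85 on one probe set and fell by 2.04 on the other. No 4CL probe set was expressed in pollen. The 2 probe sets that were not called had small differences, 0.24 (95% interval -0.45 to 0.92) for the gene named 4CL and 0.07 (-0.18 to 0.32) for 4CL3. With quantile normalization or equal medians these 2 counted as higher, as did 37% and 53.3% of all probe sets.

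**Figure D2:**
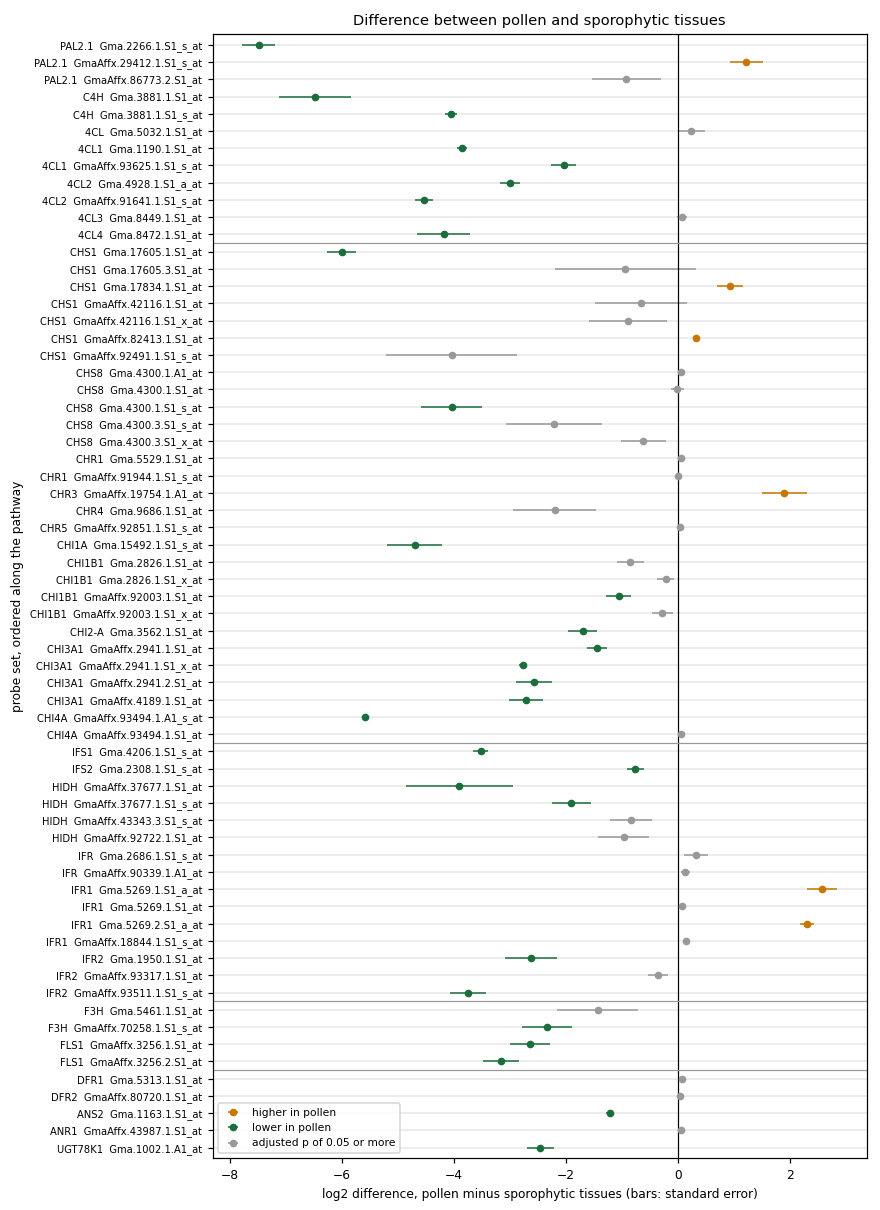
Log2 difference between the group means (x axis, pollen minus sporophytic tissues) with its standard error from limma, for the 65 probe sets in pathway order. The 29 lower calls reach -7.48 for PAL2.1, and the 6 higher calls reach 2.57 for IFR1.

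The steps that form the chalcone and flavanone skeleton held 29 probe sets. Of these, 10 (34.5%) were lower in pollen, 3 (10.3%) higher and 16 not called, beside 34.5% lower and 18.9% higher over all probe sets. The median log2 difference of the 29 was -0.89. It was -0.06 with quantile normalized probe sets and 0.26 with equal medians, so its sign changed with the scaling. CHS, which condenses coumaroyl-CoA with malonyl-CoA and belongs to a large family of near-identical genes in soybean, was represented by 7 probe sets of CHS1 and 5 of CHS8. Signals on these probe sets can come from other CHS genes. Of the 12, 2 were lower, 2 higher and 8 not called.

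Of the 7 CHS1 probe sets, 1 fell. Gma.17605.1.S1_at had 3.18, 2.92 and 3.68 in pollen and 9.26 and 9.25 in sporophytic tissues, and it fell by 6.0 (SE 0.26, limma adjusted p = 0.000298). Both sporophytic arrays were alike here and far above the pollen arrays. Another pair of CHS1 probe sets was higher in pollen at signals far below 100, Gma.17834.1.S1_at by 0.93 (3.68, 4.14 and 4.05 against 3.29 and 2.76) and GmaAffx.82413.1.S1_at by 0.33 (3.09, 3.10 and 3.09 against 2.75 and 2.78). The call for Gma.17834.1.S1_at was lost without pollen replicate 2 (adjusted p = 0.121), pollen replicate 3 (0.126) or sporophytic replicate 2 (0.12).

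The other 4 CHS1 probe sets split the sporophytic replicates. GmaAffx.92491.1.S1_s_at had 2.19, 2.20 and 2.19 in pollen but 7.99 on sporophytic replicate 1 and 4.47 on replicate 2, a difference of -4.04 (95% interval -7.31 to -0.77) that did not pass (limma adjusted p = 0.0504). On Gma.17605.3.S1_at the values were 6.87 and 3.05 on the sporophytic arrays and 4.0 to 4.02 in pollen, so that the pollen arrays lay between them. CHS8 split the other way. Gma.4300.3.S1_s_at had 4.40 on sporophytic replicate 1 and 7.01 on replicate 2, against 3.49 to 3.50 in pollen, and Gma.4300.1.S1_s_at had 5.90 and 7.49 against 2.46, 2.76 and 2.75. The latter fell by 4.04 in pollen (SE 0.54, limma adjusted p = 0.0058), while the former, with a difference of -2.21 (-4.62 to 0.21), was not called. In all, 4 of the 7 CHS1 probe sets were brighter by at least 2-fold in sporophytic replicate 1, and 3 of the 5 of CHS8 in replicate 2. Over all probe sets, these shares were 8.54% and 11.5%. Of the 11 leaf marker probe sets, 7 were brighter by at least 2-fold in replicate 1 and 1 in replicate 2. Their part in these values was not tested. With either sporophytic array left out, calls on these split probe sets followed the array that was kept, 3 of the 4 of CHS1 higher in pollen without replicate 1 and all 4 lower without replicate 2. The spread in such a fit came from the pollen arrays alone, so these calls say nothing beyond the values of the kept array.

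One CHS8 probe set had similar signals in both groups. Gma.4300.1.S1_at had 6.73, 6.84 and 6.75 in pollen and 6.63 and 6.94 in sporophytic tissues, a difference of -0.01 (95% interval -0.34 to 0.33). It was the only CHS probe set expressed in pollen, and its groups overlapped. With quantile normalized probe sets its difference was 1.48 and with equal medians 1.14, both called higher, so its direction rests on the scaling.

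**Figure D3:**
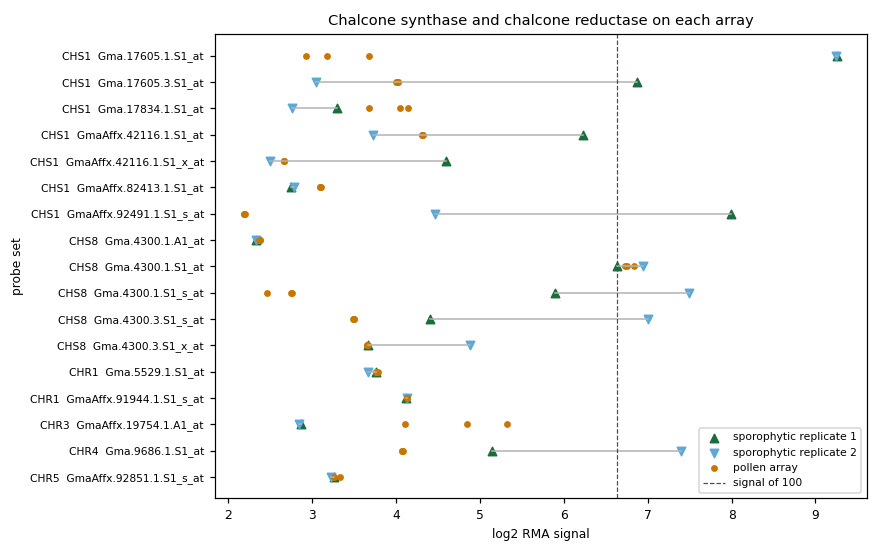
Log2 RMA signal (x axis) of the 12 CHS and 5 chalcone reductase (CHR) probe sets on each array, with a grey line joining the 2 sporophytic arrays. The line is long for 4 CHS1 probe sets, where replicate 1 is higher, and for 3 CHS8 probe sets and CHR4, where replicate 2 is higher.

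CHR works together with CHS to make the deoxychalcone that leads to the isoflavone daidzein in legumes. CHR3 was higher in pollen, with 4.11, 4.84 and 5.32 against 2.87 and 2.84, a rise of 1.90 (SE 0.40, limma adjusted p = 0.0222) that stayed below a signal of 100. The call was lost without pollen replicate 2 (adjusted p = 0.0851) or either sporophytic array (0.0881 and 0.0932). CHR4 had 4.07 to 4.08 in pollen, 5.14 on sporophytic replicate 1 and 7.40 on replicate 2, and was not called at -2.20 (95% interval -4.30 to -0.10). CHR1 and CHR5 stayed between 3.22 and 4.13 on every array. Under both other scalings 4 of the 5 CHR probe sets counted as higher, against 37% and 53.3% of all probe sets.

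Chalcone isomerase closes the chalcone ring. Of the 12 probe sets with a CHI symbol, 8 (66.7%) were lower in pollen and none was higher. The shares over all probe sets were 34.5% and 18.9%. Of the lower calls, 4 belong to CHI3A1 and 1 to CHI4A. The symbol alone does not show that a protein closes the ring, so these counts are not counts of isomerases. The median log2 difference of the 12 was -1.57. It was -0.95 after quantile normalization, with 7 lower and 1 higher, where 26.4% of all probe sets were lower and 37% higher. With equal medians it was -0.42, with 5 lower and 3 higher, where 26.2% and 53.3% of all probe sets were. CHI4A, of a type that promotes flavonoid production in Arabidopsis without closing the ring itself, had nearly equal signals within each group. GmaAffx.93494.1.A1_s_at had 2.55, 2.52 and 2.51 in pollen and 8.10 and 8.13 in sporophytic tissues, and it fell by 5.59 (SE 0.05, limma adjusted p = 2.47e-05). The other CHI4A probe set stayed between 2.58 and 2.64 on every array. CHI1A, of the legume type that also accepts the deoxychalcone, had 4.47, 4.47 and 5.68 in pollen and 9.32 and 9.83 in sporophytic tissues, and it fell by 4.70 (SE 0.49).

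CHI2-A, a chalcone isomerase of the type found in most plants, was the one CHI probe set expressed in pollen. It had 8.36, 9.05 and 8.74 in pollen and 10.22 and 10.60 in sporophytic tissues, and it fell by 1.70 (SE 0.26, limma adjusted p = 0.00912). With equal medians the difference was -0.55 and was not called (adjusted p = 0.0607). All 4 probe sets of CHI3A1 were lower, with differences between -2.76 and -1.44, at sporophytic signals below 100. For GmaAffx.2941.1.S1_at of CHI3A1, the call was lost under both other scalings. CHI1B1 was lower on 1 of 4 probe sets, GmaAffx.92003.1.S1_at, which fell by 1.06, and this call was lost without any one of the pollen arrays (adjusted p = 0.0807 to 0.083) and with equal medians, where the difference was 0.09.

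The isoflavone branch had 15 probe sets, 6 (40%) lower in pollen, 2 (13.3%) higher and 7 not called. Over all probe sets 34.5% were lower and 18.9% higher. The median log2 difference of the 15 was -0.76, and it was 0.21 after quantile normalization and 0.39 with equal medians, so its sign changed too. Isoflavone synthase (IFS), the cytochrome P450 that opens this branch, did not reach a signal of 100 on any array. Its probe sets, Gma.4206.1.S1_s_at of IFS1 and Gma.2308.1.S1_s_at of IFS2, both end in s_at, so either may read other transcripts. IFS1 had 2.44, 2.44 and 2.43 in pollen and 6.16 and 5.75 in sporophytic tissues, and it fell by 3.52 (SE 0.14, limma adjusted p = 0.000262). IFS2 had 5.60, 5.65 and 5.62 against 6.59 and 6.17, and it fell by 0.76, a call that was lost without any one pollen array (adjusted p = 0.0636 to 0.0682). After quantile normalization IFS2 was higher in pollen by 0.76, and with equal medians its difference was 0.39 and not called. IFS1 kept its call under both.

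2-Hydroxyisoflavanone dehydratase (HIDH) turns the product of IFS into the isoflavone. It was lower on 2 of its 4 probe sets. GmaAffx.37677.1.S1_at had 3.53, 6.32 and 5.14 in pollen, the widest spread of any member there, and 8.57 and 9.24 in sporophytic tissues. It fell by 3.90 (SE 0.95, limma adjusted p = 0.0321), a call that was lost without pollen replicate 3 (0.101) or sporophytic replicate 1 (0.0943) or 2 (0.132). GmaAffx.37677.1.S1_s_at fell by 1.90, and this call was lost without any one pollen array (0.0559 to 0.057). After quantile normalization neither of these was called, and with equal medians only GmaAffx.37677.1.S1_at was.

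Isoflavone reductase (IFR) acts on the way from isoflavones to the pterocarpan defence compounds of legumes, and its 3 genes went apart. IFR1 was higher in pollen on 2 of its 4 probe sets. The other 2 were not called, with differences of 0.08 and 0.15. Gma.5269.1.S1_a_at had 5.36, 5.64 and 6.13 in pollen and 3.04 and 3.24 in sporophytic tissues, a rise of 2.57 (SE 0.27, limma adjusted p = 0.00288), the largest among the members. Gma.5269.2.S1_a_at had 5.43, 5.45 and 5.77 against 3.24 and 3.26, a rise of 2.30 (SE 0.13). Both calls held without each pollen array in turn and were lost with array weights (limma adjusted p = 0.271 and 0.113). Both probe sets stayed below a signal of 100.

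IFR2 was lower on 2 of its 3 probe sets. Gma.1950.1.S1_at had 6.96, 8.19 and 8.15 in pollen, all above 100, and 10.26 and 10.51 in sporophytic tissues. It fell by 2.62 (SE 0.47, limma adjusted p = 0.0138), a call that was lost without sporophytic replicate 1 (0.0579) or 2 (0.0715). The second probe set, GmaAffx.93511.1.S1_s_at, had 3.82, 4.0 and 4.73 against 7.90 and 7.95, and it fell by 3.74 (SE 0.32). The remaining one, GmaAffx.93317.1.S1_at, had 2.06 on each pollen array and 2.14 and 2.68 in sporophytic tissues, was not called at -0.35 (limma adjusted p = 0.189), and counted as higher with equal medians (0.79). The gene named IFR, separated from IFR1 by 1 gene in the RefSeq gene order of the assembly Glycine_max_v4.0, stayed between 2.69 and 3.92 on every array and was not called. With equal medians, 7 of the 9 IFR probe sets counted as higher, where 53.3% of all probe sets did.

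The flavonol branch was expressed in pollen on 2 of its 4 probe sets, and in sporophytic tissues on all 4. Of these, 3 (75%) were lower in pollen and none was higher, beside 34.5% and 18.9% of all probe sets. The median log2 difference of the 4 was -2.49, -1.79 after quantile normalization and -1.34 with equal medians. Flavanone 3-hydroxylase (F3H) makes the dihydroflavonol. GmaAffx.70258.1.S1_s_at of F3H had 7.87, 9.12 and 8.84 in pollen and 10.78 and 11.11 in sporophytic tissues, and it fell by 2.34 (SE 0.45, limma adjusted p = 0.0164). The call was lost without pollen replicate 3 (0.0555) or sporophytic replicate 1 (0.0608) or 2 (0.0816). Gma.5461.1.S1_at had 6.51, 8.33 and 8.33 in pollen and 8.85 and 9.45 in sporophytic tissues. It was not called at -1.43 (95% interval -3.45 to 0.60), and only here was pollen replicate 1 just under a signal of 100. That replicate was the low pollen array on both F3H probe sets.

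Flavonol synthase (FLS) turns the dihydroflavonol into a flavonol such as kaempferol. GmaAffx.3256.1.S1_at of FLS1 had 8.13, 8.17 and 8.30 in pollen and 10.33 and 11.36 in sporophytic tissues. The pollen arrays were alike and above 100, and the probe set fell by 2.64 (SE 0.35, limma adjusted p = 0.00554). GmaAffx.3256.2.S1_at of FLS1 had 3.98, 4.39 and 3.98 against 6.86 and 7.69, and it fell by 3.16 (SE 0.32). Both FLS1 calls held without each array in turn and under the other scalings.

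The branch to anthocyanins and tannins was not expressed in pollen on any of its 5 probe sets. Of these, 2 (40%) were lower and 3 not called, beside 34.5% lower over all probe sets. The median log2 difference of the 5 was 0.04, 0.03 after quantile normalization and 1.19 with equal medians. Dihydroflavonol 4-reductase (DFR), which competes with FLS for the dihydroflavonol, had 2.27 to 2.28 in pollen and 2.19 to 2.20 in sporophytic tissues for DFR1, and 2.43 to 2.44 against 2.39 to 2.40 for DFR2. Anthocyanidin reductase ANR1, an enzyme of tannin synthesis, stayed between 2.52 and 2.59. At these dim signals no difference was detectable as deposited, while with equal medians DFR1, DFR2 and ANR1 counted as higher, as did 53.3% of all probe sets.

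Anthocyanidin synthase ANS2 had 3.49, 3.49 and 3.48 in pollen and 4.80 and 4.63 in sporophytic tissues, and it fell by 1.22 (SE 0.07, limma adjusted p = 0.000635) below a signal of 100 in both groups. With equal medians its difference was -0.08. UGT78K1, which adds glucose to anthocyanidins in the soybean seed coat, was the only probe set of this branch that was expressed in sporophytic tissues. It had 5.39, 5.45 and 5.73 in pollen and 8.29 and 7.68 in sporophytic tissues, and it fell by 2.46 (SE 0.24, limma adjusted p = 0.00238). After quantile normalization the difference was -0.95 and was not called (0.0615).

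**Figure D4:**
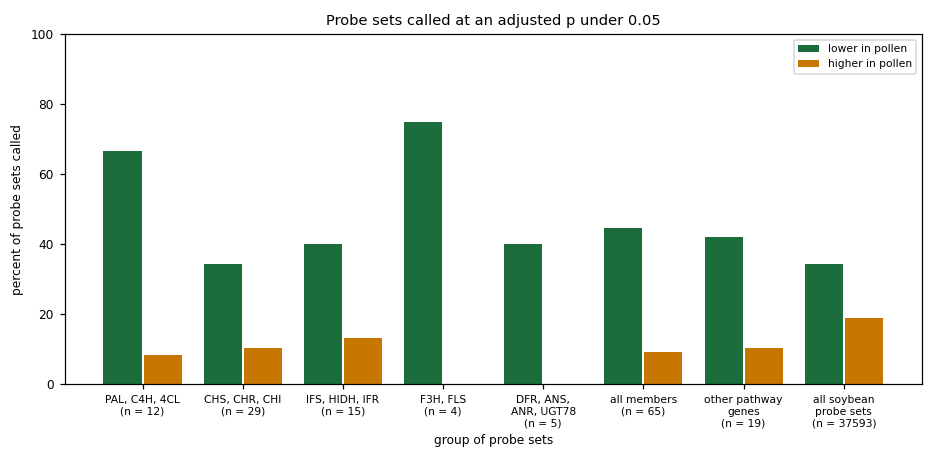
Percent of probe sets (y axis) called lower or higher in pollen for each step of the pathway, all members, other genes of the pathway and all soybean probe sets, with n below each pair of bars. Lower calls make up 66.7% of the first step and 44.6% of all members, beside 34.5% of all probe sets. The other genes include CYP93E1, which is outside flavonoid synthesis.

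Other genes around the pathway, found by symbol, comprised 19 probe sets of 11 symbols. Of these, 8 (42.1%) were lower in pollen, 2 (10.5%) higher and 9 not called, beside 34.5% lower and 18.9% higher over all probe sets. None of the 19 was expressed in pollen, beside 17.4% of all probe sets. The isoflavone 7-O-glucosyltransferase IF7GT, which makes storable isoflavone glucosides, had 4.50, 4.92 and 4.89 in pollen and 9.32 and 8.97 in sporophytic tissues, and it fell by 4.37 (SE 0.20). Its partner IF7MaT, which adds malonate to these glucosides, was lower on 2 of 3 probe sets, with differences of -3.88 and -1.39. CCR, cinnamoyl-CoA reductase at the entry to lignin, had differences of -4.18 and -3.52 on its 2 probe sets, both called lower. CYP93A1, a hydroxylase on the way to the soybean defence compound glyceollin, was higher in pollen on 1 of 2 probe sets, with 5.03, 5.61 and 5.62 against 3.42 and 3.59, a rise of 1.92 (SE 0.24). The 3 lower calls of CYP93E1, between -8.08 and -4.65, are outside flavonoid synthesis, since this enzyme makes soyasaponins. They are part of the 8 lower calls and of the medians given here. The median of the 19 was -1.39, -0.28 after quantile normalization and -0.24 with equal medians. Higher calls then numbered 2 and 9, beside 37% and 53.3% of all probe sets. Lower calls numbered 8 and 7, beside 26.4% and 26.2%.

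The spread within the groups was unequal. The median SD of the members was 0.06 among the pollen arrays and 0.30 between the sporophytic arrays. In 28 members the pollen arrays lay within 0.05 of each other, and 7 of these were called lower, with a median pollen signal of 2.53. In 14 of the 35 called members no array reached a signal of 100 (40%, beside 34.7% of all called probe sets). Of the 29 lower members, 12 were expressed in sporophytic tissues and reached 100 on no pollen array, among them PAL2.1, CHS1, CHI4A, CHI1A and UGT78K1. These were 41.4% of the lower members, beside 46.2% of all lower probe sets.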

How the data were processed

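Total RNA was labelled and hybridised to the GeneChip Soybean Genome array. The deposited values are log2 signals, normalized by the authors in affylmGUI with Robust Multiarray Averaging (RMA), a method that corrects background, equalises the arrays' distributions and combines the probes of a set. No version of it was found. Here the series table holds probe sets of soybean alone, and the medians of its arrays differ. Precision is limited by the number of arrays.

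Symbols came from the platform annotation (1 symbol for 8677 probe sets, several for 370). All 31 member symbols were matched by gene ID to RefSeq genes of Glycine_max_v4.0. The comparison used limma 3.58.1 under R 4.3.3 (two-sided, Benjamini-Hochberg over all probe sets, no covariate, no filter, prior degrees of freedom 0.854, residual 3). The fit was tested on simulated data with the same spread in both groups. The spread of the real groups was unequal, so that test does not bear on the calls given here. Figures used matplotlib 3.10.9 in Python 3.11.15.

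Members and lists were chosen with earlier results of these data known. Named by rule were up to 4 called rises and 4 falls per step, members with a signal of 100 on every pollen array, and all probe sets of their symbols. Other members named were chosen after their values were seen. Lists by gene description (pollen, tapetum, xylem, endodermis) and promoter sequences were not used here. Alternatives covered the scaling, a trend with intensity, weighted arrays, blocks by replicate number and leaving out each array. They also covered dim probe sets, thresholds, probe set suffixes and the signal minimum.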

Additional observations from a re-analysis of the deposited data

How the results depend on the processing

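The 6 higher members became 11 with an intensity trend, 15 and 24 with quantile normalization and equal medians, 3 at an adjusted p under 0.01, 1 when only probe sets with a signal of 100 on at least 2 arrays were tested (20 members left), 3 without probe sets of several genes (37 left), 3 with 1 probe set per symbol (31 left), and 3 to 13 with an array left out. Higher calls over all probe sets rose as well, from 18.9% to 25.3% with the trend and to 37% and 53.3% under the 2 scalings. Of the probe sets tested with a signal of 100 on at least 2 arrays, 27.4% were higher. With a pollen array left out 3 to 5 members were higher, where 12.8 to 16.3% of all probe sets were. The 13 came without sporophytic replicate 1, where the spread was taken from pollen alone. With array weights limma called 0 higher (2 at an unadjusted p under 0.05), where 5.8% of all probe sets were higher and 22.2% lower. The 29 lower members became 31 with an intensity trend (35.3% of all probe sets) and 17 with array weights. Of the 20 members with a signal of 100 on at least 2 arrays 17 were lower, where 58.7% of the tested probe sets were. Without the suffixes named above 15 were lower, and with 1 probe set per symbol 17. With a pollen array left out 24 to 27 were lower, where 28.3 to 29.6% of all probe sets were. Without sporophytic replicate 1 or 2, 5 calls were lost in each case, and 15 gained in each, with the spread then taken from pollen alone and the lone array assumed to vary like it. With a replicate block 2 were higher and 19 lower (9.34% and 23% of all probe sets). Nothing in the labels pairs samples by number, and deviations sharing a number had correlations of 0.024 and 0.016. Expressed in pollen were 12 members at a minimum of 50 and 4 at 200, against 7 at 100. Under the 2 scalings IFS2 was the one member whose call changed direction, 0.76 after quantile normalization. Of the 30 uncalled members, 8 turned from negative to positive after quantile normalization (2 then called) and 12 with equal medians (4 then called). Among those named by rule, they were CHS8 on Gma.4300.1.S1_at (1.48 quantile normalized, 1.14 with equal medians, 0.01 with the replicate block and -0.16 to 0.15 with an array left out) and Gma.4300.3.S1_x_at (0.13 and 0.53 under the 2 scalings). With equal medians these were joined by IFR2 on GmaAffx.93317.1.S1_at (0.79) and PAL2.1 on GmaAffx.86773.2.S1_at (0.22, and -1.85 to 0.00 with an array left out). The cause was not tested.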

Other observations

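Pollen replicate 1 was the low array for several members that were expressed in pollen or near it. On 3 of the 65 members (4.62%) it lay at least 2-fold below both other pollen arrays, beside 1.84% of all probe sets, and on no member did it lie as far above them. The 3 are HIDH (GmaAffx.37677.1.S1_at), IFR2 (Gma.1950.1.S1_at) and F3H (Gma.5461.1.S1_at), chosen after their values were seen. The labels give no property that sets this array apart.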
